A study of Homo sapiens with 6 samples.

Results

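The genes described here are 40 genes of DNA replication and S phase, matched by gene name in a table of 58825 genes from HK-2 cells. All 40 names were found, each with 1 row, and all 40 passed the minimum level for testing (19510 genes were tested in all). HK-2 is a human kidney line grown from proximal tubule epithelium and immortalized. The Control group was 3 libraries of untreated cells, and the OX-LDL group was 3 libraries of cells given 25 µg/ml OX-LDL, an oxidized form of low-density lipoprotein, for 48 h. According to the study's methods, HK-2 cells were kept in low serum before OX-LDL was added. The labels give no vehicle for Control. The study's methods say that its cell experiments were repeated independently, but the labels do not tie each library to an experiment, so p-values measure the spread between these libraries. All libraries are from this 1 line.

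A cell copies its DNA once per division, in S phase. Origins are first licensed in G1, when the origin recognition complex (ORC), CDC6 and CDT1 load the ring of MCM2 to MCM7 onto DNA. The ring becomes an active helicase when CDC45 and the GINS complex join it. Polymerase alpha with primase then starts each new strand, the RFC complex loads the sliding clamp PCNA, and polymerases delta and epsilon extend the strands. Many of these genes are transcribed at the G1/S transition under E2F factors, which pocket proteins such as RB1 hold back until cyclin E and its kinase act. Proximal tubule cells of a healthy adult kidney divide rarely and enter the cycle after injury, whereas HK-2 cells carry papillomavirus E6 and E7, of which E7 binds the pocket proteins.

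Most of the S phase genes did not pass the test in OX-LDL. An adjusted p-value under 0.05 was reached by 6 of the 40 (15.0%, against 15.3% of all genes tested). Of these, 3 were higher and 3 lower (7.91% and 7.42% of all genes). The 3 that rose were RRM1 and RRM2, which encode the large and the small subunit of ribonucleotide reductase, and ORC1, the largest subunit of ORC. The 3 that fell were E2F1, GINS3 and RFC2. The largest change was that of RRM2, with a log2 change of 1.31. A log2 change is the fitted log2 ratio of OX-LDL to Control, given with its standard error (SE). Adjusted p-values are Benjamini-Hochberg values over all 19510 genes tested with edgeR's quasi-likelihood test of the counts, and a gene is said to have risen or fallen only where this value was under 0.05. Levels are the deposited FPKM (fragments per kilobase, scaled to library size). A comparison of levels between genes rests on the gene lengths that FPKM divides by.

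The promoters below are shown because E2F motifs are a sequence feature for which S phase promoters are known. They run from 250 bases before to 50 bases after the start site, on GRCh38.p14 as given by RefSeq, and are written 5′ to 3′ on the strand of the gene. Capitals mark matches to the E2F motif, searched as TTTCCCGC, TTTCGCGC, TTTGCCGC or TTTGGCGC on both strands. The first 4 held the most matches among the members, with ties taken by p-value. RRM1 and RRM2, chosen after their values had been seen, are shown for the 2 largest rises.
MCM6, chr2:135876394-135876693, - strand: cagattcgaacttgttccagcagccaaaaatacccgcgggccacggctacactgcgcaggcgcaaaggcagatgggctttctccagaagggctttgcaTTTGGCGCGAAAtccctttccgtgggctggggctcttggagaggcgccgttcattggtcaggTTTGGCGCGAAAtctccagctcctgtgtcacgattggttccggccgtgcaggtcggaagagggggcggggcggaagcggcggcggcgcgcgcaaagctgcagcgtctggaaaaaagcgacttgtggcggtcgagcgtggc
E2F1, chr20:33686336-33686635, - strand: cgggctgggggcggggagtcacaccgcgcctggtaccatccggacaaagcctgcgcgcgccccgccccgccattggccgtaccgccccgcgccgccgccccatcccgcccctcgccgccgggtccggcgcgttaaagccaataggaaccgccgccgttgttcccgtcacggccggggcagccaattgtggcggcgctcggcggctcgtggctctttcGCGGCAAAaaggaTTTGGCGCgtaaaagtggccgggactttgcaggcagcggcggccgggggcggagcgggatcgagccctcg
MCM7, chr7:100101348-100101647, - strand: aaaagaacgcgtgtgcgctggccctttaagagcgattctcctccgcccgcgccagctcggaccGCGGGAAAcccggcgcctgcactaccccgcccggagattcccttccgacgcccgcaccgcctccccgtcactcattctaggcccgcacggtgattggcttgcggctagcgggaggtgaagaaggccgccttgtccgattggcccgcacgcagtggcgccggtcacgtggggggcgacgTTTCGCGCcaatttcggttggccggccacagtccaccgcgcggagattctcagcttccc
MCM2, chr3:127598161-127598460, + strand: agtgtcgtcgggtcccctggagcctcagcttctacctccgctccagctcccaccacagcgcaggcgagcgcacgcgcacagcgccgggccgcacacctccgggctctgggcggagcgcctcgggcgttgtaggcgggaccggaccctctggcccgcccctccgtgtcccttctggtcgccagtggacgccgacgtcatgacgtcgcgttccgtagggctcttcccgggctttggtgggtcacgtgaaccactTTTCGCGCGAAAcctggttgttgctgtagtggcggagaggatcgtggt
RRM1, chr11:4094435-4094734, + strand: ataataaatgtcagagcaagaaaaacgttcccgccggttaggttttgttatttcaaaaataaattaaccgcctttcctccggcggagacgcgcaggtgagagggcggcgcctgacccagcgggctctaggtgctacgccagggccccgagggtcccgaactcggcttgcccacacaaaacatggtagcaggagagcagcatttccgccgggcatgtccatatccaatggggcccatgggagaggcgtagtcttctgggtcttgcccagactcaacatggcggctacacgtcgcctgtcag
RRM2, chr2:10122489-10122788, + strand: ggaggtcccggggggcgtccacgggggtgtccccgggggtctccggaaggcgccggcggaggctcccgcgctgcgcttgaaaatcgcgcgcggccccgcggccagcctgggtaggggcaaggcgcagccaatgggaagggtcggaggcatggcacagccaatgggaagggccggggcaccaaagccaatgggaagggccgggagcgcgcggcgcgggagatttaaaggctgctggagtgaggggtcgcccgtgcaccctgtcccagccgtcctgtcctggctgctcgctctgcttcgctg

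The MCM6 window held 4 matches, which are 2 elements read on both strands, and the 2 matches of MCM2 are likewise 1 overlapping element. A promoter was listed for 36 members. MCM4, MCM5, GINS4 and CCNE2 had none. The E2F motif was found in 19 of the 36 windows (52.8%), against 3.31% of all 35116 windows of the same length and 4.86% of the 15816 windows of tested genes. Of the 3 members that rose, 0 of 3 windows held it, as the RRM1, RRM2 and ORC1 windows have no match. Of the 3 that fell, the windows of E2F1 and GINS3 held it and that of RFC2 did not. Among the 30 listed members that were not called, 17 had a match. The CCAAT box (CCAAT) was found in 21 of 36 windows (58.3%, against 34.6% of all and 34.8% of tested genes), and in the windows of all 3 members that rose. The Sp1 motif (GGGCGG) was found in 27 of 36 (75.0%, against 45.0% of all and 65.0% of tested genes). TTTGAA, the CHR motif of many G2 and M phase genes, was found in 1 window, that of RRM1 (2.78%, against 15.2% of all and 10.4% of tested genes). A match is only a run of letters, not a shown binding site. The RRM2 and MCM7 windows lie inside the gene spans of the deposited table.

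Total counts lay between 62561347 (OX-LDL replicate 1) and 76797607 (OX-LDL replicate 2), and about 4 of these counts stand for a read pair. The lowest count of any member in any library was 585, so each member was well above the range where single reads matter. Of 16 entries of epithelial and tubule markers (GGT1 has 2 identifiers), 11 were tested and 5 were called. The keratins KRT8 and KRT19 and the cadherin CDH2 rose, from 37.5 ± 6.50 to 65.4 ± 4.96 FPKM for KRT8, from 5.47 ± 0.481 to 20.6 ± 4.83 FPKM for KRT19 and from 37.7 ± 0.188 to 45.1 ± 2.89 FPKM for CDH2 (SD, n = 3 each). The kidney transcription factor PAX8 fell from 46.6 ± 12.9 to 19.4 ± 4.17 FPKM, and 1 of the 2 identifiers of GGT1 was lower in the test although its groups overlapped. KRT18 (35.1 to 78.8 FPKM over the libraries), EPCAM (48.6 to 56.7), MME (2.85 to 3.93), PAX2 (0.225 to 0.661), CDH1 (0.0276 to 0.144) and the other GGT1 identifier (3.13 to 18.2) were tested and not called. The remaining 5 were below the minimum for testing, with LRP2, a receptor of proximal tubules, at 0 counts in each library, CUBN, ANPEP and SLC34A1 under 0.1 FPKM in each and AQP1 at 0.142 FPKM or less. Of the 16 markers of fibroblasts, leukocytes and endothelium, 12 were under the minimum for testing, among them DCN and AIF1 with 0 counts in each library. The other 4 were not called by edgeR (2 had an unadjusted p-value under 0.05, and DESeq2 called 1). They were LUM, at 8.06 to 13.1 FPKM, CD68, at 2.77 to 7.56 FPKM in Control and 8.91 to 13.6 FPKM in OX-LDL (log2 change 1.08, adjusted p = 0.0858, edgeR), COL1A1, at 0.467 to 0.932 FPKM, and CD14, at 0.165 to 0.361 FPKM. The part of these markers in the results below was not tested.

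OX-LDL replicate 2 stood apart from the other OX-LDL libraries in these genes. It had the highest FPKM of the 3 OX-LDL libraries for 31 of the 40 members, against 7089 of all 19510 genes tested, while OX-LDL replicates 1 and 3 were the highest for 4 and 5. Its median log2 difference from the Control mean over the 40 members was 0.01, whereas that of OX-LDL replicates 1 and 3 was -0.13 and -0.15. Over all genes tested these medians were -0.02, -0.00 and -0.02. In the 24 genes of a G2 and M phase list the order was turned: OX-LDL replicate 2 was the lowest of the 3 for 23 genes, with a median of 0.39 against 0.77 in both other OX-LDL libraries. The median coefficient of variation of the members was 5.57% in Control and 11.4% in OX-LDL. For the 9982 tested genes at or above the mean level of the lowest member it was 8.34% and 8.67%. The labels name no batch, and the part of this library in the results was not tested beyond leaving it out, so values without it are given beside the results that it changes.

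**Figure D1:**
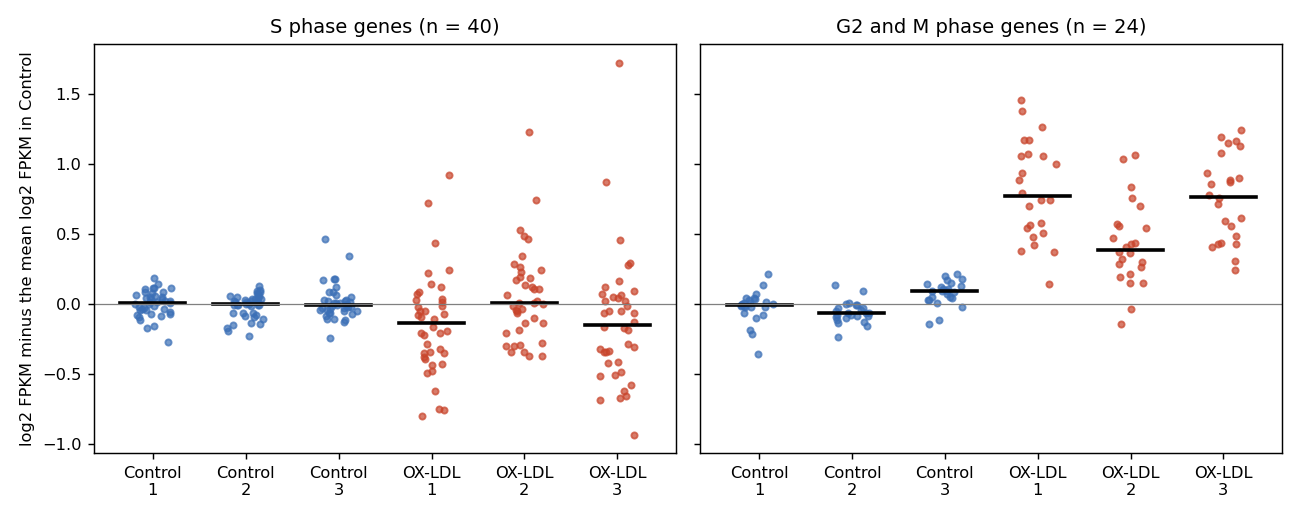
Each point is 1 gene in 1 library, placed by its log2 FPKM minus its mean log2 FPKM in Control (vertical axis), for the 40 S phase genes and for 24 G2 and M phase genes, and black lines are medians. The S phase medians of OX-LDL replicates 1 and 3 are -0.13 and -0.15 and that of OX-LDL replicate 2 is 0.01, while the G2 and M phase medians are 0.77, 0.39 and 0.77 in OX-LDL replicates 1 to 3.

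The share of members called, 6 of 40 (15.0%), was near that of all genes tested (15.3%), and under the 23.5% found among genes at or above the mean level of the lowest member. By direction, 3 of 40 were higher (7.91% of all genes) and 3 of 40 lower (7.42%). An unadjusted p-value under 0.05 was found for 14 of 40 (30.4% of all genes). Under a second rule, that the fitted fold was over 2 or under 0.5 at an unadjusted p-value under 0.05, RRM2 was the single member called (6.36% of all genes). The median log2 change of the 40 was -0.03, beside -0.00 over all genes tested, with 19 members above 0 and 21 below. In 17 of 40 members the 3 OX-LDL libraries did not overlap the 3 Control libraries in FPKM (37.2% of all genes), 5 of them higher (16.8%) and 12 lower (20.5%). Of the 34 members that were not called, all had a 95% interval of the change that stayed within 2-fold in either direction. When OX-LDL replicate 2 was left out, 13 of 40 were called (15.1% of all genes), 3 higher (7.55%) and 10 lower (7.53%), and the median was -0.08. That library was singled out by its values in these same genes, so these counts are a description. RNA of whole cultures was measured, so a difference in the share of cells in S phase and one in RNA per cell cannot be told apart.

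**Figure D2:**
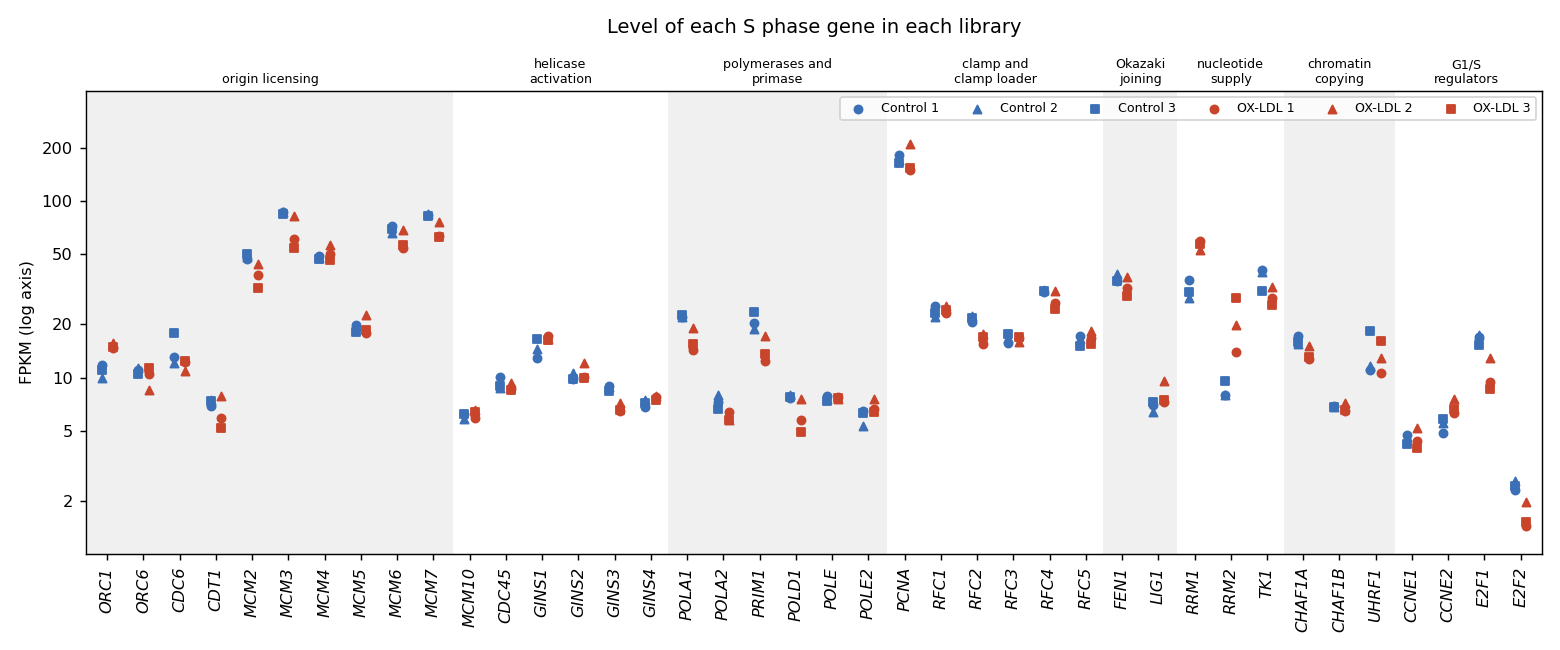
FPKM on a log axis for each of the 40 genes, ordered by role, with Control libraries in blue and OX-LDL libraries in red (circle, triangle and square for replicates 1, 2 and 3). Levels run from 2.45 FPKM (mean in Control) for E2F2 to 172 FPKM for PCNA, the red points of RRM1 and RRM2 all lie above the blue points, and the red triangles of OX-LDL replicate 2 are the highest of the red points in 31 genes.

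Ribonucleotide reductase makes the deoxyribonucleotides that replication uses, and both of its S phase subunits rose. RRM1 (ENSG00000167325; chromosome 11, 4094707 to 4138875, plus strand) had 35.6, 28.2 and 30.6 FPKM in Control replicates 1 to 3 and 59.4, 52.6 and 57.4 FPKM in OX-LDL replicates 1 to 3. Each OX-LDL library was above each Control library, by more than the spread within either group. From a Control mean of 31.5 ± 3.78 FPKM, RRM1 rose to 56.5 ± 3.51 FPKM in OX-LDL (SD, n = 3 each), a log2 change of 0.87 (SE 0.11, adjusted p = 0.00513, edgeR). RRM1 was the member with the smallest p-value, and with any 1 library left out edgeR gave it an adjusted p-value of at most 0.0259. It overlaps the antisense gene RRM1-AS1, and the sources used here do not say whether counting used strand.

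RRM2 (ENSG00000171848; chromosome 2, 10120698 to 10210597, plus strand) had 7.99, 8.02 and 9.60 FPKM in Control and 14.0, 19.96 and 28.2 FPKM in OX-LDL. The groups did not overlap, but the highest OX-LDL library, replicate 3, was 2.01 times the lowest, replicate 1, the widest range among the 40 members in that group. The mean rose from 8.53 ± 0.919 to 20.7 ± 7.10 FPKM, a log2 change of 1.31 (SE 0.25, 95% interval 0.73 to 1.89, adjusted p = 0.0168, edgeR). Without Control replicate 1 or 2 the adjusted p-value from edgeR was 0.0572 or 0.0688. Without OX-LDL replicate 3 the log2 change was 1.02 and the adjusted p-value 0.0346. The FPKM of RRM1 was above that of RRM2 in each library, 3.19 to 4.45 times in Control and 2.04 to 4.24 times in OX-LDL. In counts this order did not hold in OX-LDL replicate 3, with 22024 for RRM1 and 23354 for RRM2. The ratio of the 2 genes therefore rests on the gene lengths used for FPKM.

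Thymidine kinase TK1, which salvages thymidine for DNA synthesis, did not pass the test. It had 40.8, 39.6 and 31.1 FPKM in Control and 28.3, 32.4 and 25.9 FPKM in OX-LDL, so that the groups overlapped (log2 change -0.33, SE 0.13, adjusted p = 0.150, edgeR). None of 8 further genes of nucleotide supply, among them thymidylate synthase TYMS, was called by edgeR, with 1 of the 8 (the nucleoside transporter SLC29A1, log2 change -0.42) at an unadjusted p-value under 0.05. DESeq2 also called 1 of the 8.

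**Figure D3:**
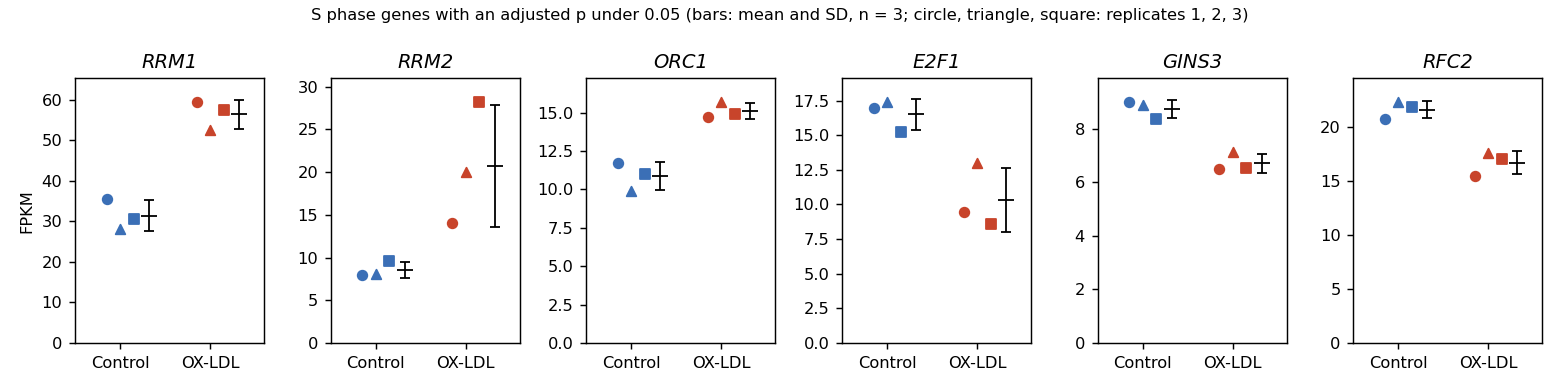
FPKM (linear axis from 0) of the 6 members with an adjusted p-value under 0.05 in each library, with Control in blue, OX-LDL in red, replicates 1, 2 and 3 as circle, triangle and square, and the mean with its SD (n = 3) in black. The OX-LDL points lie above all Control points for RRM1, RRM2 and ORC1 and below them for E2F1, GINS3 and RFC2, and RRM2 spreads from 14.0 to 28.2 FPKM within OX-LDL.

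Among the 10 genes of origin licensing, ORC1 rose and the other 9 were not called. ORC1 (ENSG00000085840; chromosome 1, 52372829 to 52404423, minus strand) had 11.8, 9.90 and 11.0 FPKM in Control and 14.7, 15.7 and 14.9 FPKM in OX-LDL, with no overlap of the groups. Its log2 change was 0.50 (SE 0.10, adjusted p = 0.0175, edgeR). Without Control replicate 2 or OX-LDL replicate 3 its adjusted p-value from edgeR was 0.0550 or 0.0600. ORC6, the smallest ORC subunit, had a log2 change of -0.09, and the loading factors CDC6 and CDT1 had -0.24 and -0.16, with overlapping groups for each.

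The 6 subunits of the MCM ring lay between 19.2 FPKM (MCM5) and 85.6 FPKM (MCM3) in the Control mean. MCM5 was the lowest of the 6 in each library, and MCM3 was the highest in each Control library but gave way to MCM7 in OX-LDL replicates 1 and 3. Summed over the 6 subunits, the level was 357, 352 and 351 FPKM in Control and 285, 350 and 270 FPKM in OX-LDL. OX-LDL replicate 2 was thus near the Control libraries, and both others were lower.

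None of the ring subunits was called in the fit of all 6 libraries. MCM3 had 86.4, 86.7 and 83.9 FPKM in Control and 60.7, 82.7 and 54.4 FPKM in OX-LDL (log2 change -0.35, SE 0.15, adjusted p = 0.180, edgeR). MCM7 had 83.5, 84.1 and 82.3 FPKM in Control and 63.4, 76.0 and 62.2 FPKM in OX-LDL (log2 change -0.28, adjusted p = 0.0883). MCM2 had 46.9, 48.1 and 50.0 FPKM in Control and 38.2, 44.1 and 32.3 FPKM in OX-LDL (log2 change -0.31, adjusted p = 0.124). For these 3 subunits each OX-LDL library was below each Control library. Without OX-LDL replicate 2 each was called by edgeR, with log2 changes of -0.54 (MCM3), -0.38 (MCM7) and -0.42 (MCM2). That library was singled out by its values in these same genes, so these calls are a description. Without any other single library the adjusted p-values from edgeR were 0.265 to 0.388 (MCM3), 0.157 to 0.238 (MCM7) and 0.204 to 0.262 (MCM2). MCM6 had a log2 change of -0.18, while MCM4 and MCM5 had 0.12 and 0.07, and all 3 had overlapping groups. Without OX-LDL replicate 2 the value of MCM5 was -0.04. MCM7 carries the microRNA genes MIR106B, MIR93 and MIR25 and overlaps AP4M1 on the other strand, and MCM2 overlaps AC023593.

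Of the 6 genes that turn the licensed ring into a helicase, GINS3 fell. GINS3 (ENSG00000181938; chromosome 16, 58295080 to 58406144, plus strand) had 8.99, 8.88 and 8.36 FPKM in Control and 6.49, 7.14 and 6.55 FPKM in OX-LDL, so the groups did not overlap. Its log2 change was -0.35 (SE 0.08, adjusted p = 0.0329, edgeR). The other GINS subunits were GINS1 with a log2 change of 0.22, GINS2 with 0.12 and GINS4 with 0.14, none of them called. In the order of levels, GINS3 stood above GINS4 in each Control library and below it in each OX-LDL library. GINS4 did not overlap between the groups and was higher in OX-LDL, at 7.45 to 7.84 against 6.79 to 7.43 FPKM. GINS3 overlaps AC009118 and 2 U6 pseudogenes on the other strand. CDC45 and MCM10, a factor that helps to start the helicase, had log2 changes of -0.04 and 0.08, with 95% intervals from -0.28 to 0.19 and from -0.13 to 0.28.

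None of the 6 polymerase and primase genes was called by edgeR. Of the 6, 3 had an unadjusted p-value under 0.05, as did 30.4% of all genes tested. DESeq2, which called 22.7% of all genes, called 2 (POLA1 and PRIM1). POLA1, the catalytic subunit of polymerase alpha, had 21.9, 22.0 and 22.6 FPKM in Control and 14.4, 19.2 and 15.5 FPKM in OX-LDL (log2 change -0.41, SE 0.12, adjusted p = 0.0582, edgeR). PRIM1, the catalytic subunit of primase, had 20.3, 19.0 and 23.6 FPKM in Control and 12.4, 17.2 and 13.6 FPKM in OX-LDL (log2 change -0.51, SE 0.15, adjusted p = 0.0643). Both genes were lower in each OX-LDL library than in every Control library, and PRIM1 overlaps NACA on its own strand, so that its reads could have been split. The accessory subunit POLA2 (log2 change -0.26) and POLD1, the catalytic subunit of polymerase delta (-0.33), also had groups that did not overlap. POLE and POLE2 of polymerase epsilon had 0.05 and 0.22, with overlapping groups. Without OX-LDL replicate 2, edgeR called POLA1 (log2 change -0.54), PRIM1 (-0.66) and POLD1 (-0.52). As that library was singled out by its values in these same genes, these calls are a description. Without any other single library the adjusted p-values from edgeR were 0.128 to 0.172 (POLA1), 0.0969 to 0.179 (PRIM1) and 0.324 to 0.452 (POLD1).

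The clamp PCNA had the highest FPKM of the 40 members. It had 182, 171 and 164 FPKM in Control and 149, 209 and 153 FPKM in OX-LDL, so that OX-LDL replicate 2 was above each Control library and both others were below. Its log2 change was 0.02 (95% interval -0.32 to 0.35), and -0.16 without OX-LDL replicate 2 (adjusted p = 0.225, edgeR). Of the clamp loader, RFC2 (ENSG00000049541; chromosome 7, 74231499 to 74254407, minus strand) fell, with 20.7, 22.3 and 21.8 FPKM in Control and 15.5, 17.6 and 17.1 FPKM in OX-LDL. The groups did not overlap, and the log2 change was -0.34 (SE 0.08, adjusted p = 0.0366, edgeR). RFC1, the large subunit, had a log2 change of 0.07, RFC3 0.02, RFC4 -0.15 and RFC5 0.08, none of them called. RFC4 had the highest FPKM of the 5 in each library, and it overlaps EIF4A2 on the other strand.

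The flap endonuclease FEN1 and the ligase LIG1, which finish Okazaki fragments, had log2 changes of -0.12 and 0.26 (FEN1 overlaps FADS2 on its own strand), and neither was called by edgeR, which gave 0 of 2 at an unadjusted p-value under 0.05, or by DESeq2. Neither program called any of the 3 genes grouped here as chromatin copying, with 0 of 3 at an unadjusted p-value under 0.05. CHAF1A and CHAF1B, subunits of the histone chaperone CAF-1, had -0.22 and 0.01, and CHAF1A was lower in each OX-LDL library than in all of Control. CHAF1B overlaps MORC3 on its own strand. UHRF1, which guides maintenance DNA methylation, had 11.0, 11.6 and 18.3 FPKM in Control and 10.6, 12.9 and 16.1 FPKM in OX-LDL. It had the widest spread of the members within Control, and its log2 change of -0.01 became 0.26 without Control replicate 3.

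Of the 4 regulators of the G1/S transition, E2F1 fell. E2F1 (ENSG00000101412; chromosome 20, 33675477 to 33686385, minus strand), an activator of replication genes, had 16.9, 17.4 and 15.2 FPKM in Control and 9.45, 13.0 and 8.61 FPKM in OX-LDL. The groups did not overlap, and OX-LDL replicate 2 was the nearest to Control. Its mean fell from 16.5 ± 1.13 to 10.3 ± 2.31 FPKM, a log2 change of -0.64 (SE 0.16, adjusted p = 0.0416, edgeR), the largest fall among the 40. E2F2, the next of the activators, had 2.31, 2.59 and 2.44 FPKM in Control and 1.45, 1.98 and 1.52 FPKM in OX-LDL (log2 change -0.53, SE 0.15, adjusted p = 0.0607). Each E2F2 value in OX-LDL was below each in Control. Cyclin E1 (CCNE1) had a log2 change of 0.03 with overlapping groups. Cyclin E2 (CCNE2) had all OX-LDL values above those of Control, with a log2 change of 0.37 (SE 0.11, adjusted p = 0.0750), and it overlaps INTS8 and NDUFAF6 on the other strand.

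The calls of E2F1, GINS3 and RFC2 were lost when any 1 library other than OX-LDL replicate 2 was left out. Without OX-LDL replicate 2 their adjusted p-values from edgeR were 0.00812, 0.0301 and 0.0414, and without any other single library they lay from 0.0717 to 0.128 for E2F1, from 0.0573 to 0.112 for GINS3 and from 0.0732 to 0.116 for RFC2. Their direction was the same in each of the 6 fits. Likewise, E2F2, which was not called in the fit of all libraries, had an adjusted p-value of 0.0200 and a log2 change of -0.69 without OX-LDL replicate 2. Without any other single library its adjusted p-value from edgeR was 0.115 to 0.175. Over all genes tested, these fits called 5.95% to 10.2%, against 15.3% with all 6 libraries. OX-LDL replicate 2 was singled out by its values in these same genes, so the values without it are a description.

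**Figure D4:**
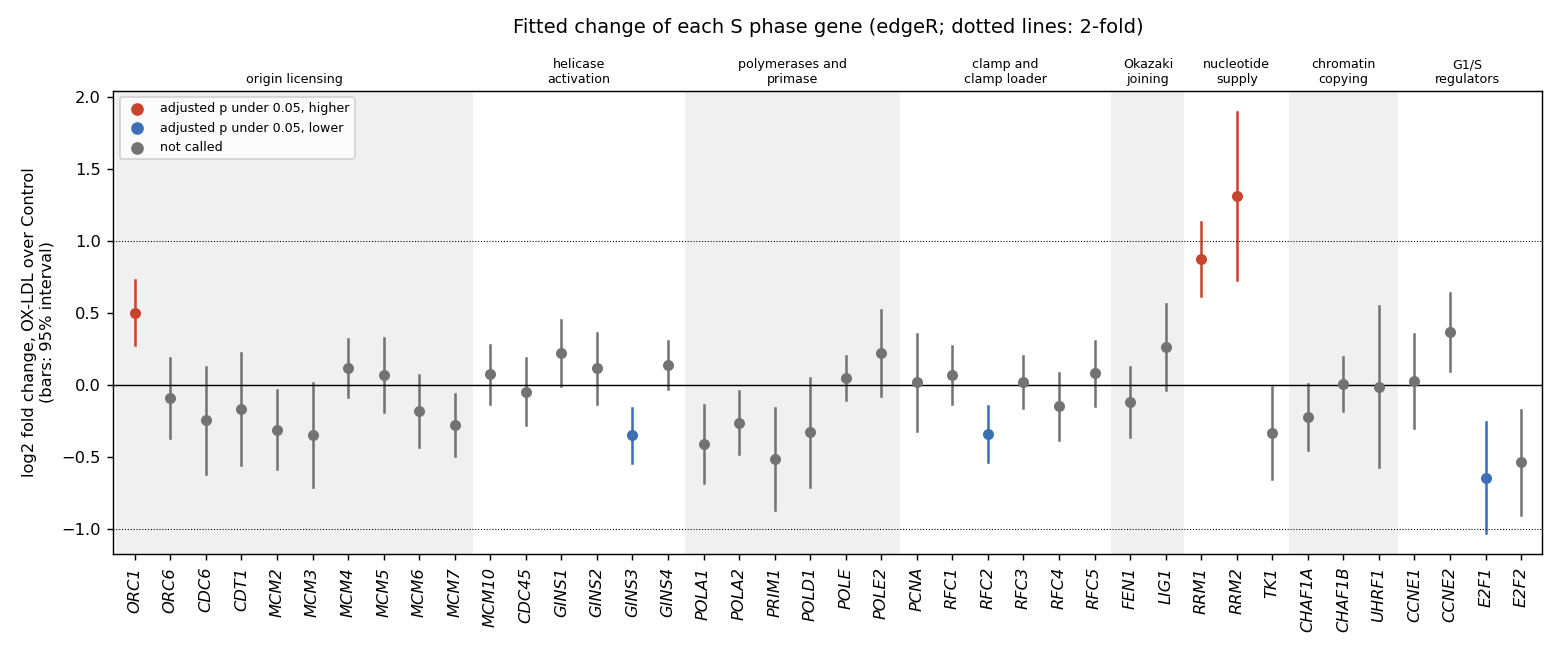
Log2 change (OX-LDL over Control, edgeR) of each of the 40 genes with its 95% interval, ordered by role, with genes of an adjusted p-value under 0.05 in red where higher and blue where lower, and dotted lines at a 2-fold change. The points run from -0.64 (E2F1) to 1.31 (RRM2), and for 37 genes the whole interval lies between the dotted lines, the others being RRM1, RRM2 and E2F1.

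Other genes of the pathway were taken from lists of its known components. Of 35 further genes of origins and forks, 6 rose and 0 fell (7.91% and 7.42% of all genes tested). Together 17.1% were called, against 15.3% of all genes tested. An unadjusted p-value under 0.05 was found for 15 of the 35 (30.4% of all genes). The 4 with the smallest p-values were WDHD1, which links the helicase to polymerase alpha (log2 change 0.66), the ORC subunit ORC3 (0.47), RPA1 of the single-strand binding protein RPA (0.50) and the primase subunit PRIM2 (0.36). Its partner PRIM1 was lower in each OX-LDL library than in each Control library but was not called (adjusted p = 0.0643, edgeR). Of 6 further genes of chromatin copying, 66.7% were called, against 15.3% of all genes tested. The chaperones ASF1A (0.42) and ASF1B (0.32) rose, and the maintenance methyltransferase DNMT1 (-0.38) and the remodeller HELLS (-0.81) fell.

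Of 11 further members of the E2F and pocket protein family, 0 were called by edgeR, 0 had an unadjusted p-value under 0.05, and DESeq2 called 0. The activator E2F3 had a log2 change of -0.10 and RB1 had -0.15. Of 16 genes of G1 cyclins, their kinases and inhibitors, 1 rose and 3 fell (7.91% and 7.42% of all genes tested). Together 25.0% were called, against 15.3% of all genes tested. The inhibitor CDKN2C rose from 12.9 ± 1.98 to 27.5 ± 1.32 FPKM (log2 change 1.12), and the inhibitor CDKN1A, known as p21, fell from 20.4 ± 2.98 to 7.41 ± 0.688 FPKM (log2 change -1.43). The kinase CDK4 (-0.87) and the inhibitor CDKN1C (-0.98) also fell. Of 13 genes of the replication checkpoint, WEE1 rose (0.50) and RAD17 fell (-0.51), so 15.4% were called, near the 15.3% of all genes tested.

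Of the 24 genes of G2 and M phase, 19 rose and 0 fell (7.91% and 7.42% of all genes tested), with a median log2 change of 0.72. This list was written with earlier results of these data known. Beside it, the 40 S phase genes had a median of -0.03. CCNA2, the cyclin of S phase and G2, rose from 32.7 ± 3.20 to 68.1 ± 13.3 FPKM, and FOXM1, a transcription factor of G2 and M phase genes, rose from 13.7 ± 0.294 to 29.9 ± 1.12 FPKM. The mitotic kinase TTK rose with a log2 change of 0.87 and the mitotic kinesin KIF20A with one of 1.25. Without OX-LDL replicate 2, 21 of the 24 rose (7.55% of all genes tested). That library was the lowest of the 3 OX-LDL libraries for 23 of these 24 genes, so this count is a description.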

How the data were processed

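RNA-seq of 3 Control and 3 OX-LDL libraries of HK-2 cells was used, grouped by the labels. The authors deposited estimated counts, not scaled, and FPKM values, scaled by the authors per kilobase and for library size, with a count of 0 listed at 0.0001 FPKM. Counts are whole numbers, about 4 per read pair, and were used as deposited without rounding. The libraries were poly(A) selected and strand-marked by dUTP. The submitters' processing notes name cutadapt 1.9, HISAT2 2.0.4, StringTie 1.3.4d, edgeR, DESeq2 and GRCh38. The use of strand in counting is not given in the sources used here.

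The 19510 genes that averaged 0.1 FPKM or more over the 6 libraries were tested with edgeR (version 4.0.16, R version 4.3.3): TMM factors, glmQLFit and glmQLFTest, with group as the only term. Standard errors are the log2 fold change over the square root of F, and 95% intervals use its degrees of freedom. With 3 against 3, a two-sided exact permutation test cannot go under p = 0.1, so none was used. The fits were tested on simulated data. Alternatives were DESeq2 (version 1.42.0), limma (version 3.58.1) with a trend on log2(FPKM + pseudocount), other scalings and minimums, counts divided by 4, a replicate block and leaving out each library.

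All 40 members are named. Values in each library were planned for members called or past 2-fold, and were added for 9 others (MCM2, MCM3, MCM7, POLA1, PRIM1, PCNA, TK1, UHRF1 and E2F2) after values had been seen. Of each further list, at most 4 genes with the smallest p-values were to be named; E2F3, RB1, TYMS, CCNA2 and cell type markers were named in addition. The members, lists and tests were chosen with earlier results of these data known. Intervals cover the spread between libraries only.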

Additional observations from a re-analysis of the deposited data

How the results depend on the processing

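Over the 40 members under 16 alternatives, 568 gene values kept their direction and call, 25 lost the call, 20 gained it and 27 changed sign. The sign changes were all in members that were not called and lay near 0 in the fit of all 6 libraries. The changed values reached 0.26 (UHRF1 without Control replicate 3) and -0.16 (PCNA without OX-LDL replicate 2). RRM1 was called under all 16. Against 6 members called (3 lower), DESeq2 and a minimum mean of 1 FPKM each called 10 (6 lower), 25.0% of members, while over all genes the share was 22.7% and 25.7%. With no minimum 3 were called (0 lower), 7.50% of members and 7.46% of all genes. Limma with a pseudocount of 0.1 or 1 called 8 of 40 (5 lower), against 14.9% and 15.0% of all genes. The causes were not tested. With 1 library left out, 1 to 13 members were called (1 to 3 higher, 0 to 10 lower), and 1161 to 2943 of all genes.

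The labels do not say whether the replicate numbers pair the libraries. Deviations from the group means of same-numbered libraries correlated at -0.041, -0.00313 and 0.0356. Those of differently numbered libraries correlated at -0.0542 to 0.0565. With 3 libraries a group, these values cannot settle whether the libraries were paired. With the number as a block, 3 members (RRM1, RRM2 and E2F1, so 1 lower) and 1636 of all genes were called, and UHRF1 had a log2 change of 0.0059.

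The other sign changes were as follows. With a limma pseudocount of 0.1 the log2 changes were -0.029 (PCNA), -0.011 (RFC3), -0.026 (CHAF1B) and -0.0079 (CCNE1), and with 1 they were -0.029, -0.011, -0.023 and -0.0058. With total counts alone they were -0.0088 (PCNA), -0.0085 (RFC3) and -0.021 (CHAF1B). CHAF1B had -0.0039 with no minimum and UHRF1 0.0099 with upper-quartile factors. With 1 library left out the ranges were -0.18 to 0.024 (ORC6), -0.042 to 0.14 (MCM5), -0.091 to 0.026 (CDC45), -0.16 to 0.11 (PCNA), -0.012 to 0.065 (RFC3), -0.040 to 0.041 (CHAF1B), -0.18 to 0.26 (UHRF1) and -0.078 to 0.11 (CCNE1). With 3 libraries a group, a change of 0 lies inside the 95% interval of many members, and for these the data do not tell a small change from none.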
